A study of Mus musculus with 2 samples.

Results

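Described here are 6 mature miRNAs of macrophages, mmu-miR-155-5p, mmu-miR-155-3p, mmu-miR-147-3p, mmu-miR-147-5p, mmu-miR-132-3p and mmu-miR-212-3p (written without the species prefix from here on), of 1976 mature miRNAs listed for each library. They were chosen by known role, as miRNAs that Toll-like receptor or interferon signalling induces in macrophages, and each was matched by its name. The series holds 2 small RNA libraries, 1 of M1 exosomes and 1 of M2 exosomes. Both came from bone marrow-derived macrophages of C57BL/6 mice aged 5 to 6 weeks, grown with 10 ng/mL M-CSF for 7 days. M1 cells then received 20 ng/mL IFN-γ for 1 day and M2 cells 20 ng/mL IL-4 for 1 day, and vesicles were pelleted by ultracentrifugation from 2 days of serum-free medium. Neither library comes from cells given a Toll-like receptor ligand, as far as the labels say. Unpolarised macrophages and the RNA of the cells themselves were not analysed here. With 1 library per group nothing below has a replicate error, and each difference compares these 2 libraries. Whether a lower value means fewer vesicles that carry a miRNA or fewer copies per vesicle cannot be told apart.

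Toll-like receptors sense microbial products and signal through NF-κB, AP-1 and interferon regulatory factors. miR-155-5p is processed from the non-coding transcript Mir155hg, rises early in activated macrophages and represses brakes on signalling such as Socs1 and the phosphatase SHIP1 (Inpp5d). miR-147-3p is induced by Toll-like receptors in mouse macrophages and lowers their cytokine production. miR-132 and miR-212 are made from a shared locus under control of CREB, are best known from neurons, and are also induced by Toll-like receptor ligands. A miRNA recognises target mRNAs mainly through its seed, bases 2 to 8 from its 5′ end. Each hairpin can give a mature strand from either arm, called 5p and 3p, of which usually 1 is retained.

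The mature sequences show which of these miRNAs share a seed, and are given 5′ to 3′ with the seed in capitals. They are RefSeq sequences on build GRCm38.p6, and 5 of the 6 members were matched there.
miR-155-5p: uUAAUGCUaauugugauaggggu
miR-155-3p: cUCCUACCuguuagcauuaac
miR-147-5p: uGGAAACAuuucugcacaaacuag
miR-132-3p: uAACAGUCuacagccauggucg
miR-212-3p: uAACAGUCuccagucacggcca

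miR-132-3p and miR-212-3p have the same seed, AACAGUC, and are identical at 17 of 22 bases (77.3%). The 5 differences, counted from the 5′ end with the base of miR-132-3p first, are A10C, C14U, U17C, U20C and G22A, and all lie 3′ of the seed. The seeds of miR-155-5p, miR-155-3p and miR-147-5p were found in 0 other mature miRNAs of the RefSeq table. In that table miR-132-3p and miR-212-3p form a seed family of 2.

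The members come from 4 hairpins at 3 loci (GRCm38.p6, plus strand, positions of hairpins). Mir155 lies at chr16:84714140-84714204, in an exon of the long non-coding RNA Mir155hg. Mir147 lies at chr2:122640803-122640881, in an untranslated part of an exon of the protein-coding gene AA467197. Mir212 at chr11:75173388-75173478 and Mir132 at chr11:75173682-75173747 are separated by 203 bases and both lie in an intron of the non-coding transcript 1700016P03Rik. Of these, 3 hairpins are shown with their mature arms in capitals, to place the guide and passenger strands whose values differ below.
Mir155: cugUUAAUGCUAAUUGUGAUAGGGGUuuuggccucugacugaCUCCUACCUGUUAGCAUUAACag
Mir212: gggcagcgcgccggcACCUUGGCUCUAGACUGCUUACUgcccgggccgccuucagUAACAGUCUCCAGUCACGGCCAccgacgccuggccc
Mir132: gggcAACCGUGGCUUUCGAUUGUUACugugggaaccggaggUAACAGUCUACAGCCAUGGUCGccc

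The values the authors deposited are log2(level + 1), with the level in units whose normalization is not given in the sources used here. Low levels fell on even steps, which were taken as the worth of 1 read, 0.80 units in the M1 library and 1.22 units in the M2 library. Levels summed to 686353 units in the M1 library and 734637 units in the M2 library, and the read total of neither library is known. A miRNA was compared if it reached 10 units in at least 1 library, which 337 did, and was counted as different at a log2 ratio of at least 1 in size, or 2-fold. Across those 337 the log2 ratio, M1 minus M2, had a median of 0.04 and a standard deviation of 1.59.

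Both strongly expressed members, miR-155-5p and miR-147-3p, were higher in the M1 library, and so was the low passenger strand miR-147-5p. miR-132-3p lay close to equal in both libraries, and miR-212-3p was listed at 0 in both. Of the 6 members 4 were compared, of which 3 were higher by 2-fold or more in the M1 library, against 26.1% of all compared miRNAs, and 0 were higher by 2-fold or more in the M2 library, against 22.8% of all compared miRNAs. Their median log2 ratio was 1.75, against 0.04 for all compared. The 4 values come from 3 hairpins, and 2 of the 3 that were higher are arms of the same hairpin, so they are not independent. miR-147-5p reached the minimum in the M1 library alone, which favours a higher M1 value. The count of 3 and the median of 1.75 both include it. With 10 units required in both libraries the count was 2, miR-155-5p and miR-147-3p, and miR-132-3p was the other member compared. Under that rule 55 of all 246 compared miRNAs were higher by 2-fold or more in the M1 library and 37 in the M2 library. Without miR-147-5p the compared members had log2 ratios of 2.71, 1.35 and -0.24. The other members, miR-155-3p and miR-212-3p, were below the minimum in both libraries.

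**Figure D1:**
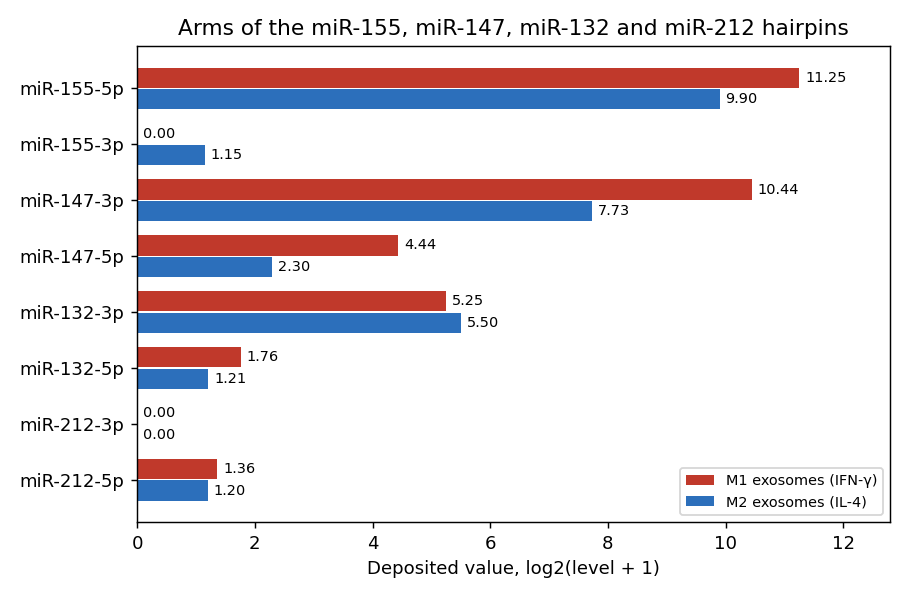
Deposited values, log2(level + 1), of both arms of the 4 hairpins, with M1 exosomes in red above M2 exosomes in blue and 1 library each. miR-155-5p and miR-147-3p stand far above the other arms in both libraries and are longer in red, while miR-132-3p has bars of nearly equal length at 5.25 and 5.50.

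miR-155-5p, the guide strand of miR-155 and the member with the highest level, had a log2 value of 11.25 in the M1 library and 9.90 in the M2 library. On the linear scale these were 2429 units in the M1 library and 952 units in the M2 library. It was 2.55-fold higher in the M1 library, a log2 ratio of 1.35. It held 0.35% of the summed level in the M1 library and 0.13% in the M2 library, and ranked 34th by level in the M1 library and 55th in the M2 library. Ranks between miRNAs carry any preference of the library kit for particular sequences. If the worth of 1 read at low levels also held at this level, counting error alone would give a 95% interval of 2.36 to 2.76 for the ratio (exact Clopper-Pearson interval, as for all intervals here). Such intervals leave out the spread between cultures and libraries, and reads without molecular identifiers are not independent molecules.

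The size of the miR-155-5p difference was not among the largest of the series. It ranked 67th of the 337 ratios from the highest. Among the other 42 compared miRNAs whose mean log2 value lay within 1 of it, 7 had a ratio at least as high. Of those 42, 11 were higher by 2-fold or more in the M1 library and 8 in the M2 library.

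miR-155-3p, the passenger strand from the same hairpin, had a listed log2 value of 0 in the M1 library and 1.15 in the M2 library. The M2 value is the worth of 1 read, and a value of 0 in the M1 library allows up to 3 reads or 2.40 units there, for counting error only. No difference of miR-155-3p was detectable at this depth, and no fold is given. The excess of miR-155 in the M1 library was thus measured on its 5p strand alone. The 5p strand exceeded the 3p strand by 11.25 on the log2(level + 1) scale in the M1 library and by 8.74 in the M2 library, where both numbers depend on a 3p value of at most 1 read.

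miR-147-3p, the strand by which miR-147 is known in macrophages, had a log2 value of 10.44 in the M1 library and 7.73 in the M2 library. On the linear scale these were 1387 units in the M1 library and 211 units in the M2 library, 6.54-fold higher in the M1 library at a log2 ratio of 2.71. Its rank by level was 47th in the M1 library and 122nd in the M2 library. It held 0.20% of the summed level in the M1 library and 0.029% in the M2 library. With the read worth of low levels, counting error alone would give an interval of 5.61 to 7.72 for the ratio.

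The miR-147-3p ratio was the 17th highest of 337. Among the 60 other compared miRNAs with a mean log2 value within 1 of it, 1 had a ratio at least as high, namely the erythroid miRNA miR-451a at 2.72. The median ratio of those 60 was 0.20 and their standard deviation 1.16. The higher-ranked ratios other than that of miR-451a belonged to miRNAs with lower mean values.

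**Figure D2:**
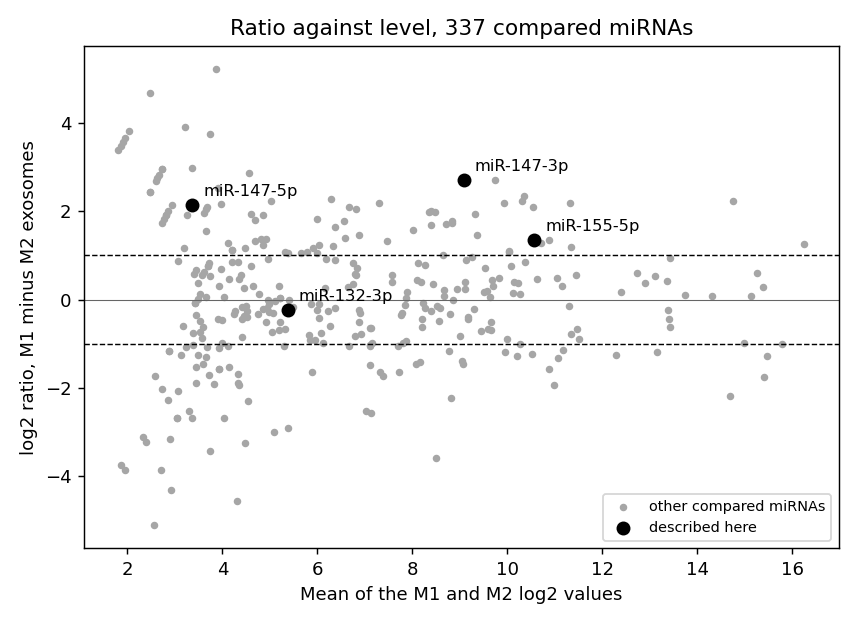
The log2 ratio, M1 minus M2 exosomes, against the mean log2 value of each of the 337 compared miRNAs (grey), with the 4 compared members in black and dashed lines at 2-fold. miR-147-3p, at 2.71, sits at the upper edge of miRNAs of its level, miR-155-5p, at 1.35, lies above the 2-fold line among others, and miR-132-3p, at -0.24, lies near 0.

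miR-147-5p, the passenger strand of miR-147, was also higher in the M1 library. Its log2 value was 4.44 in the M1 library and 2.30 in the M2 library, or 20.7 units in the M1 library and 3.91 units in the M2 library. That is the worth of about 26 reads in the M1 library and about 3 reads in the M2 library. The log2 ratio was 2.14, a fold of 4.41 on the log2(level + 1) scale. The ratio of the levels was 5.29, with a counting interval of 1.74 to 29.3, so its size is poorly known. miR-147-5p was compared through its M1 level alone, which favours a ratio above 1. An interval above 1 is therefore no test of a difference here. miR-147-5p ranked 32nd of the 337 ratios, and 15 of 100 other compared miRNAs of like mean value had a ratio at least as high.

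Both arms of miR-147 differed in the same direction, and by amounts that counting error does not separate. Within the M1 library the 5p strand lay below the 3p strand by a log2 difference of -6.00, and within the M2 library by -5.43. The change of that difference between the libraries was -0.57. It was -1.52 with an offset of 10 units and -0.31 with no offset. The changes of other hairpins were taken with the offset of 1 alone. Across 68 hairpins with both arms compared, the median size of such a change was 0.77, and it was smaller than that of miR-147 in 24. Both arms were higher by 2-fold or more in the M1 library in 13 of the 68 hairpins and higher by 2-fold or more in the M2 library in 4, while the arms were called in opposite directions in 5. A hairpin could enter these 68 with an arm that reached 10 units in 1 library alone, as the 5p arm of miR-147 did in the M1 library, so the 13 partly reflect that choice. The 13 include both miR-486 entries, which lie on opposite strands of overlapping hairpins.

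**Figure D3:**
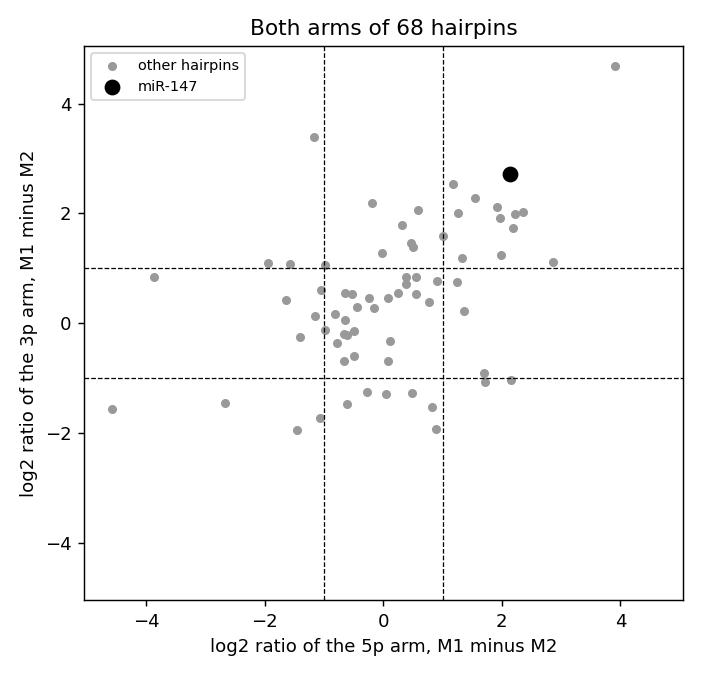
The log2 ratio, M1 minus M2 exosomes, of the 3p arm against that of the 5p arm for 68 hairpins with both arms compared, with dashed lines at 2-fold. miR-147 (black), at 2.14 for the 5p arm and 2.71 for the 3p arm, is among the 13 hairpins in the upper right field, where both arms were higher by 2-fold or more in the M1 library.

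miR-132-3p, the guide strand of miR-132, did not differ detectably between the libraries. Its log2 value was 5.25 in the M1 library and 5.50 in the M2 library, or 37.2 units in the M1 library and 44.2 units in the M2 library. If the worth of 1 read at low levels also held here, these would be about 46 reads in the M1 library and about 36 reads in the M2 library. The library with the lower level would then hold more reads. The log2 ratio was -0.24, and the ratio of the levels was 0.84 with a counting interval of 0.53 to 1.33. That interval holds 1, and its lower bound is next to the value of a 2-fold difference, for counting error only. It ranked 196th by level in the M1 library and 182nd in the M2 library.

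miR-212-3p, which shares the seed of miR-132-3p and comes from the neighbouring hairpin, was listed at 0 in both libraries. This allows up to 3 reads, or 2.40 units in the M1 library and 3.67 units in the M2 library. The measured level of the AACAGUC seed family was therefore carried by miR-132-3p in both libraries. On the log2(level + 1) scale miR-132-3p exceeded miR-212-3p by 5.25 in the M1 library and by 5.50 in the M2 library. With miR-212-3p at 0 these differences are the values of miR-132-3p itself and depend on the offset. An offset of 10 units gave 2.24 in the M1 library and 2.44 in the M2 library. The remaining arms of this locus were near the limit of detection. miR-132-5p had log2 values of 1.76 in the M1 library and 1.21 in the M2 library, the worth of 3 reads in the M1 library and 1 read in the M2 library. miR-212-5p had log2 values of 1.36 in the M1 library and 1.20 in the M2 library, the worth of 2 reads in the M1 library and 1 read in the M2 library, so that the 5p strand of miR-212 was listed above 0 where its 3p strand was not. No fold is given for values at or under 3 reads in both libraries.

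The miRNAs whose pair of values lay nearest to those of each compared member were found by Euclidean distance over the log2 values of the 2 libraries. Nearest to miR-155-5p were miR-22-3p at a distance of 0.19, miR-30a-5p at 0.44 and miR-361-3p at 0.46. Nearest to miR-147-3p were miR-127-3p at 0.64, miR-199a-3p at 0.74 and miR-99b-3p at 0.77, which had log2 ratios of 1.93, 1.79 and 1.74. These distances are larger than those around the other members. Nearest to miR-147-5p were miR-700-3p at 0.23, miR-700-5p at 0.36 and miR-330-3p at 0.41. Nearest to miR-132-3p were miR-139-5p and miR-126b-5p, both at 0.16, and miR-374c-5p at 0.30.

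Other miRNAs known to be induced by Toll-like receptor signalling had log2 ratios on both sides of 0. Of the 9 on this list 8 were compared, and 5 of these lay inside the 2-fold lines. In the M1 library 2 were higher by 2-fold or more, against 26.1% of all compared miRNAs. In the M2 library 1 was higher by 2-fold or more, against 22.8% of all compared miRNAs. The 8 had a median log2 ratio of -0.41, against 0.04 for all 337. miR-146a-5p, a feedback inhibitor of NF-κB signalling, had log2 values of 16.88 in the M1 library and 15.63 in the M2 library, a log2 ratio of 1.25 next to that of miR-155-5p. miR-99b-5p had log2 values of 11.04 in the M1 library and 8.85 in the M2 library, a log2 ratio of 2.19. let-7e-5p and miR-125a-5p, which come from the same cluster as miR-99b, had log2 ratios of -0.65 and -0.20. The 3p arms of this cluster, not on the list, had log2 ratios of 0.55 for let-7e-3p, 2.20 for miR-125a-3p and 1.74 for miR-99b-3p. miR-9-5p, best known from neurons, had log2 values of 6.70 in the M1 library and 10.30 in the M2 library, a log2 ratio of -3.61. miR-222-3p had a log2 ratio of 0.53, miR-146b-5p -0.62 and miR-21a-5p -0.99, while miR-187-3p stayed below the minimum at log2 values of 2.53 in the M1 library and 1.84 in the M2 library.

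**Figure D4:**
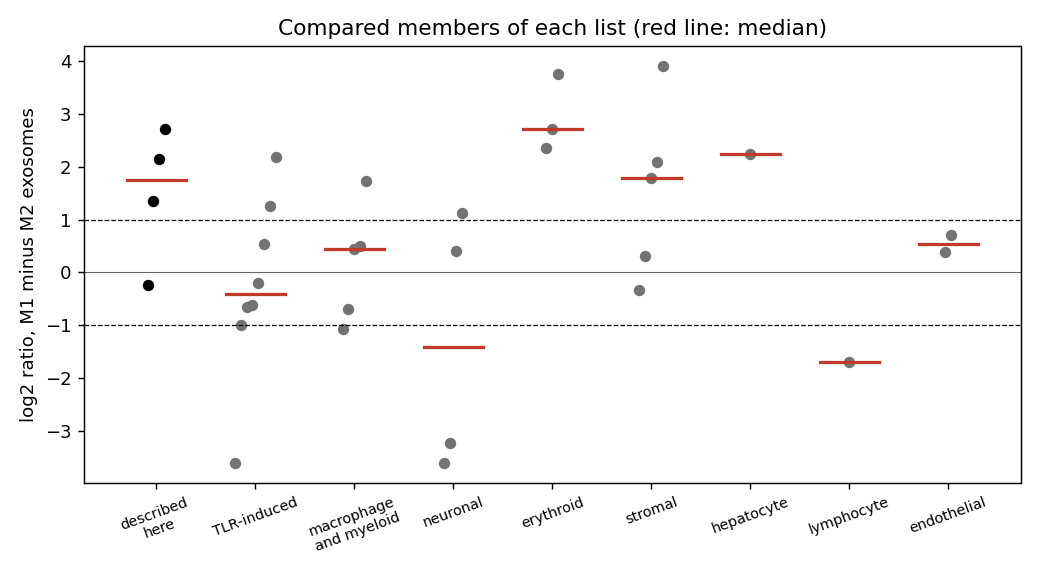
The log2 ratio, M1 minus M2 exosomes, of each compared member of the miRNAs described here, of the other miRNAs induced by Toll-like receptors and of 7 cell type marker lists, with the median as a red line and dashed lines at 2-fold. The 4 members have a median of 1.75 and the other induced miRNAs -0.41. The first median includes miR-147-5p, which was compared through its M1 level alone. The erythroid, hepatocyte and stromal medians, at 2.72, 2.24 and 1.79, are also above the upper 2-fold line. The neuronal and lymphocyte medians, at -1.42 and -1.70, are below the lower one. The hepatocyte and lymphocyte lists hold 1 miRNA each.

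Some markers of other cell types were also higher in the M1 library, beside miR-155-5p and both arms of miR-147. Of the 4 erythroid markers 3 were compared and all 3 were higher by 2-fold or more there, against 26.1% of all compared miRNAs. Among these 3, miR-144-5p was compared through its M1 level alone, with an M2 value worth about 2 reads. The erythroid levels summed to 5192 units in the M1 library and 910.1 units in the M2 library. Of the 6 stromal markers 5 were compared and 3 were higher by 2-fold or more in the M1 library, against the same 26.1%. The stromal levels summed to 4413 units in the M1 library and 1498 units in the M2 library. Of those 3, miR-145a-5p was compared through its M1 level alone, with an M2 value worth about 1 read. The remaining compared stromal markers miR-199a-5p and miR-143-3p had log2 ratios of 0.32 and -0.33. The hepatocyte list held miR-122-5p alone, with a log2 ratio of 2.24. miR-192-5p and miR-194-5p, which hepatocytes also express and which were not on the list, had log2 ratios of 0.35 and 0.34. The endothelial markers, 2 of 2 compared, lay inside the 2-fold lines, with summed levels of 962 units in the M1 library and 589 units in the M2 library, and the lymphocyte marker miR-150-5p had a log2 ratio of -1.70. Among all markers on the 7 lists, miR-124-3p was the single one listed at 0 in either library. The stromal marker miR-214-3p had an M2 level of 0.08 units, under the worth of 1 read. The part of these markers in the results on miR-155 and miR-147 was not tested.

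Macrophage and myeloid markers were detected in both libraries, and 5 of 5 were compared. Of these miR-142a-5p was higher by 2-fold or more in the M1 library, at a log2 ratio of 1.72. miR-142a-3p, from the same hairpin, was higher by 2-fold or more in the M2 library, at -1.07. The other 3 lay inside the 2-fold lines, and the median log2 ratio was 0.45. Over all compared miRNAs 26.1% were higher by 2-fold or more in the M1 library and 22.8% in the M2 library. The summed macrophage and myeloid level was 5008 units in the M1 library and 4038 units in the M2 library. Beside miR-132-3p, which neurons also express, 4 of 5 neuronal markers were compared, of which 1 was higher by 2-fold or more in the M1 library, 2 in the M2 library and 1 lay inside the 2-fold lines. Those higher in the M2 library were miR-9-5p and miR-138-5p, while miR-129-5p had a log2 ratio of 1.12 and miR-128-3p of 0.40. miR-138-5p was compared through its M2 level alone, with an M1 value worth about 1 read. The defining neuronal marker miR-124-3p was listed at 0 in both libraries. The summed neuronal level was 463 units in the M1 library and 1542 units in the M2 library, of which miR-9-5p gave 103 units in the M1 library and 1264 units in the M2 library.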

How the data were processed

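Small RNA libraries were made with a NEBNext kit from 500 ng of Trizol-extracted exosome RNA, per the labels' protocols. Per the submitters' processing notes, the tools were Bowtie2 and bedtools and the build was mm10, and no version is named. For the assignment of reads, the handling of strand and multiple matches, and the normalization, the entry is "not given in the sources used here", and totals of reads are likewise unknown. The deposited values are log2 values, 1 per mature miRNA and library, and 0 other per-sample columns were set aside.

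Deposited values were turned into levels by undoing the log2 and taking off the offset of 1. The M1 read step came from 175 miRNAs whose M2 level was under 1 read, of which 99.4% were whole multiples within 0.1 step. The M2 step came from 129 miRNAs at 0 in M1, of which 95.3% were. Low values of each library shift slightly with the value in the other, so the deposited values appear normalized together, and reads given here are level divided by step, rounded. The minimum of 10 units is near 12.5 M1 reads and 8.18 M2 reads. Ratios are differences of deposited values, with no test, because each group has 1 library. Counting intervals are 95% Clopper-Pearson intervals on those reads.

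The members, lists and tests were chosen with earlier results of these data known. The text names the 6 members, the remaining 2 arms of their hairpins, the 9 other induced miRNAs and the 3 nearest to each compared member. Cell type markers were named in addition, and miR-451a and miR-486a-5p were on the erythroid list. The mentions of miR-451a beside miR-147-3p and of both miR-486 entries among the hairpins came after their values were seen. So did the naming of miR-192-5p, miR-194-5p, let-7e-3p and miR-125a-3p. Positions are from RefSeq GRCm38.p6 and host genes from GENCODE M21, on the assembly also called mm10. Other minimums, scalings and offsets were tried. Calculations used Python 3.11.15, numpy 2.4.6, pandas 2.3.3, scipy 1.17.1 and matplotlib 3.10.9.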

Additional observations from a re-analysis of the deposited data

How the results depend on the processing

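The number of members higher by 2-fold or more in the M1 library was 3 under the 3 scalings tried, with an offset of 10 units and with no minimum, and 2, miR-155-5p and miR-147-3p, with a minimum of 100 units or with 10 units in both libraries. With no minimum 1 member, miR-155-3p at 1 read, counted as higher in the M2 library. Over the 3 scalings and 2 offsets tried, the log2 ratio of miR-155-5p ran from 1.28 to 1.45, that of miR-147-3p from 2.64 to 2.81, that of miR-147-5p from 1.14 to 2.40 and that of miR-132-3p from -0.31 to -0.15. The lowest miR-147-5p value came with an offset of 10 units, which shrinks low levels. Dividing each library by its sum moved the median of the compared miRNAs to 0.15. Over all compared miRNAs with no minimum, 201 of 747 were higher by 2-fold or more in the M1 library and 229 in the M2 library. With 100 units these counts, M1 first, were 37 and 33 of 162, and with 10 units in both libraries 55 and 37 of 246. Dividing by the sum gave 94 and 63 of 331, and by the sum without the 10 most abundant miRNAs 85 and 86 of 340. Centring on the median ratio gave 88 and 82 of 337, and an offset of 10 units 66 and 57 of 337. No paired analysis was possible because M1 and M2 have a single library each, and for the same reason no library could be left out. Depth limits miR-155-3p, miR-212-3p and the 5p arms of miR-132 and miR-212, all at or under 3 reads.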
